A study of Arabidopsis thaliana with 6 samples.

Results

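The genes described here are the 200 whose signal spread most over the 3 wild-type rosettes of a study of PCO1 overexpression in Arabidopsis thaliana. They were taken from 8297 genes that the platform annotation pairs with a probe set of their own and whose mean signal over the 6 arrays was at least 5 on the log2 scale. Genes were ranked by the highest minus the lowest of the 3 wild-type values, called the range here, with 1 probe set per gene. The study hybridised total RNA of whole rosettes to Affymetrix Arabidopsis GeneChips, with 3 arrays of 35S:PCO1 plants and 3 arrays of wild-type plants, all in normoxia, that is, in air. PCO1 is plant cysteine oxidase 1, an enzyme that uses oxygen to mark transcription factors of the hypoxia response for degradation, and its transgene is driven by 35S, a viral promoter active in nearly every tissue. Both genotypes grew on soil in short days of 8 h (nights of 16 h), with day and night temperatures of 22 °C and 18 °C, and rosettes were taken 2 h into the light period. The labels give their age as 4 weeks in one place and as 5 weeks in another, and the sample titles of the 35S:PCO1 arrays name CDO1. They do not say how many plants or transgenic lines a sample holds, so the spread between replicates may be biological or technical.

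Plants of one genotype raised in one chamber still differ in the transcripts that answer to growth stage, light, touch, cold and attack. Expansins, xyloglucan-modifying enzymes and endoglucanases remodel the cell wall as a leaf grows, flavonoid enzymes make pigments under strong light and cold, and lectins of the jacalin type together with the ER body, a beta-glucosidase store of Brassicaceae, belong to defence against herbivores. Plastids carry a small genome of their own, which encodes parts of photosystems, of the NDH complex and of the plastid's own ribosomes and RNA polymerase.

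The genes were chosen by their wild-type ranges, which ran from 0.49 to 2.34 on the log2 scale, with a median of 0.60, against a median of 0.15 over all 8297 genes. On a linear scale that is a 1.40-fold to 5.08-fold difference between the lowest and the highest wild-type array, with a median of 1.51-fold. Of the 200 genes, 18 differed at least 2-fold between wild-type arrays. The last 3 genes taken were AT1G10020, AT4G23820 and AT1G20300, each with a range of 0.49, and the first 3 not taken were HIS1-3, AT1G73600 and AT3G28200, also with a range of 0.49. All these ranges are a description of how the genes were chosen.

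The gene of widest range was AT3G16670. Its signal was 8.49, 8.86 and 8.03 in 35S:PCO1 replicates 1, 2 and 3, against 7.78, 9.34 and 10.12 in wild-type replicates 1, 2 and 3 (log2). The groups overlapped, since all 35S:PCO1 values lay between the lowest and the middle wild-type value. AT2G38240, the next in rank, had 7.62, 6.88 and 7.08 in 35S:PCO1 and 7.65, 6.93 and 5.93 in wild type. Here wild-type replicate 3 was the lowest array and replicate 1 the highest, the opposite of AT3G16670. AT4G21650 had 4.75, 4.66 and 4.42 in 35S:PCO1 and 5.18, 5.92 and 6.80 in wild type, so that no 35S:PCO1 array reached the lowest wild-type array. AT3G05730 had 8.41, 8.89 and 8.31 in 35S:PCO1 and 8.17, 9.14 and 9.73 in wild type. AT1G10585 had 5.57, 4.97 and 5.10 in 35S:PCO1 and 5.86, 5.09 and 4.33 in wild type. In both of these genes the 35S:PCO1 values lay inside the wild-type range.

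**Figure D1:**
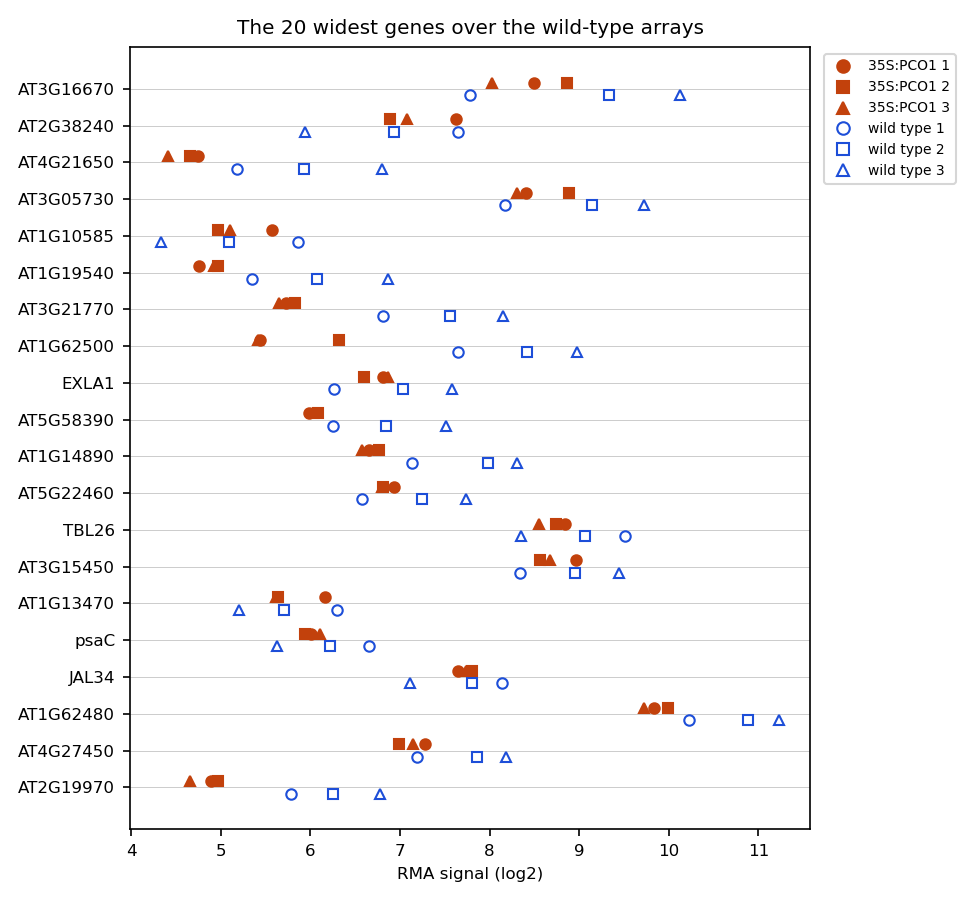
RMA signal (log2, horizontal axis) of the 20 genes of widest wild-type range, from AT3G16670 at the top, with filled orange marks for the 3 35S:PCO1 arrays and open blue marks for the 3 wild-type arrays. Wild-type replicate 2 (open square) lies between replicates 1 and 3 in every gene shown, and the 35S:PCO1 marks of most genes lie closer together than the wild-type marks.

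The wild-type arrays fell into 2 opposite orders. Of the 200 genes, 103 were lowest in wild-type replicate 1 and highest in replicate 3, and 89 were lowest in replicate 3 and highest in replicate 1. Replicate 2 thus lay in the middle in 192 genes (96%), against 50.7% of all 8297 genes. The other 8 genes included AT3G48080, CuAO1 (a copper amine oxidase), AT5G25475 and AT1G23205. CuAO1 had 5.85, 5.42 and 5.57 in 35S:PCO1 and 5.73, 6.27 and 5.94 in wild type, with wild-type replicate 2 the highest array. Below, the 106 genes with wild-type replicate 3 above replicate 1 are called replicate-3-high, and the 94 with replicate 1 above replicate 3 are called replicate-1-high. Replicates are numbered by the labels and have no order of their own.

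With each gene centred on its mean over the 6 arrays, the replicate-3-high genes averaged -0.15, -0.17 and -0.22 in 35S:PCO1 replicates 1, 2 and 3, against -0.17, 0.18 and 0.54 in the wild-type replicates. All 3 35S:PCO1 arrays lay near wild-type replicate 1. The replicate-1-high genes averaged 0.06, -0.02 and 0.03 in 35S:PCO1, against 0.28, 0.02 and -0.37 in wild type. There the 35S:PCO1 arrays lay near wild-type replicate 2. The difference of the 2 averages, replicate-3-high minus replicate-1-high, was -0.21, -0.15 and -0.26 in 35S:PCO1 and -0.45, 0.16 and 0.91 in wild type. The 35S:PCO1 arrays stood between wild-type replicates 1 and 2 on this measure, with an SD of 0.051 against 0.680 in wild type, of which the wild-type SD is fixed by the choice of the genes.

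**Figure D2:**
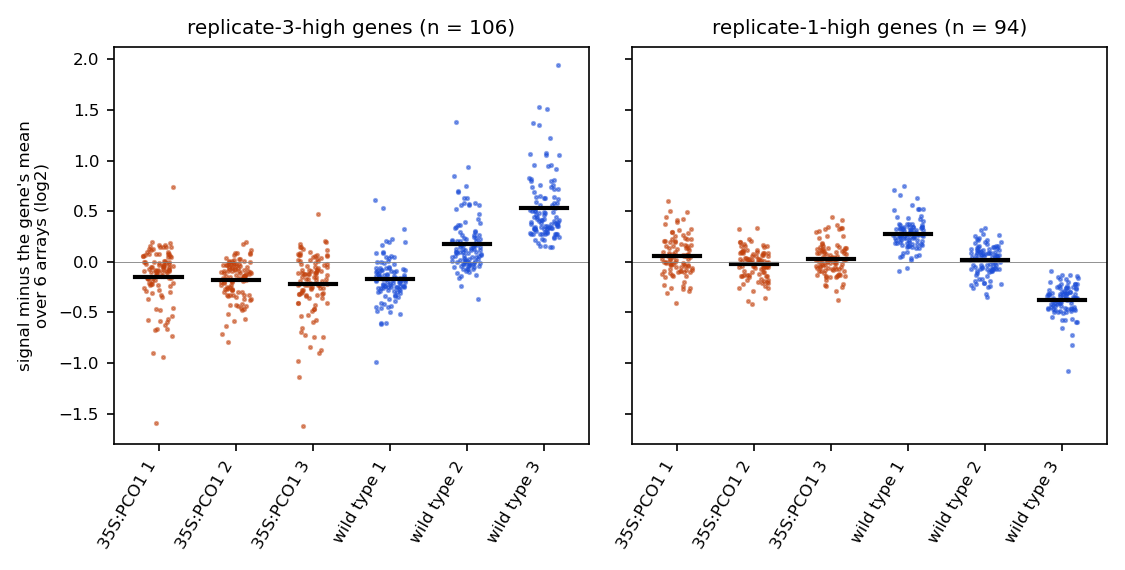
Signal minus each gene's mean over the 6 arrays (log2, vertical axis) for the 106 replicate-3-high genes (left) and the 94 replicate-1-high genes (right), with 1 point per gene and array, orange for 35S:PCO1 and blue for wild type, and bars at the mean. The bars of the 3 35S:PCO1 arrays differ little from each other, at -0.15 to -0.22 on the left and -0.02 to 0.06 on the right.

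The 25S ribosomal RNA and end-ratio controls of the arrays also differed between the samples. The probe set for 25S ribosomal RNA had 7.39, 7.54 and 7.30 in 35S:PCO1 and 8.88, 8.66 and 8.48 in wild type (log2). The mean 3' minus 5' signal, which grows as RNA degrades, was taken over 6 pairs of control probe sets (actin, GAPDH, ubiquitin) and was 0.58, 0.63 and 0.55 in 35S:PCO1 and 0.76, 0.69 and 0.58 in wild type. The 25S signal and the 3' minus 5' signal were both highest in wild-type replicate 1 and lowest in wild-type replicate 3 within wild type, the order of the replicate-1-high genes. The probe set for 5S ribosomal RNA shared that order in wild type (5.85, 5.76 and 5.54). It did not separate the genotypes, with 5.84, 5.51 and 5.91 in 35S:PCO1. The part of these controls in the results below was not tested. The array medians lay between 6.11 and 6.15, and 2 leaf photosynthesis markers were high in all samples, RCA (Rubisco activase) at 13.51 to 13.55 in 35S:PCO1 and 13.44 to 13.53 in wild type, and LHCB4.1 (a light-harvesting protein) at 13.40 to 13.48 in 35S:PCO1 and 13.43 to 13.51 in wild type. In whole rosettes, a change in the share of a cell type and a change of RNA per cell cannot be told apart.

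The spread over the 35S:PCO1 arrays played no part in choosing the genes. Its median was 0.20 over the 200 genes and 0.12 over all 8297 genes. Leaving out 35S:PCO1 replicate 1, 2 or 3 gave medians of 0.136, 0.0941 and 0.143 for the 200 genes. Of the 200 genes, only AT1G62510 differed at least 2-fold between 35S:PCO1 arrays. The range was narrower in 35S:PCO1 than in wild type in 193 of the 200 genes, against 58.3% of all genes, a count that the choice of wide wild-type genes largely fixes.

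Among all genes, the 200 widest over the 35S:PCO1 arrays had ranges there of at least 0.36, and 31 of them were also among the 200 widest over the wild-type arrays. That is 15.5% of each list, while 200 genes make up 2.41% of all. Of these 31 genes, 13 were replicate-3-high and 18 replicate-1-high. In 29 of the 31, replicate 2 was the highest or the lowest 35S:PCO1 array, as it was in 179 of the 200 widest over the 35S:PCO1 arrays and in 73.3% of all genes. Within these lists, the arrays that stood apart were replicates 1 and 3 in wild type and replicate 2 in 35S:PCO1. Each list was chosen by ranges over those same arrays, so this is a description and no independent result.

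AT1G62510 had 5.99, 4.83 and 5.73 in 35S:PCO1 and 4.64, 4.89 and 5.44 in wild type. It spread more in 35S:PCO1 (1.17) than in wild type (0.80). Its neighbour on the chromosome, AT1G62500, had 5.44, 6.32 and 5.41 in 35S:PCO1 and 7.64, 8.41 and 8.98 in wild type, so its 35S:PCO1 replicate 2 was the high array where that of AT1G62510 was the low one. GH9B13, an endoglucanase of glycosyl hydrolase family 9, had 5.94, 6.51 and 5.74 in 35S:PCO1 and 7.41, 7.73 and 7.93 in wild type. AT4G22470 had 6.26, 5.52 and 6.18 in 35S:PCO1 and 5.91, 5.45 and 5.31 in wild type, a range of 0.75 against 0.61. With AT3G16670, at 0.83, these were the genes of widest 35S:PCO1 range among the 200.

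At the other end, Hsp70-2, a cytosolic chaperone, had 6.93, 6.92 and 6.93 in 35S:PCO1 and 7.24, 7.00 and 6.71 in wild type. WES1, a GH3 enzyme that conjugates auxin to amino acids, had 5.78, 5.79 and 5.76 in 35S:PCO1 and 5.89, 6.42 and 6.89 in wild type. The 35S:PCO1 values of Hsp70-2 lay inside the wild-type range, and those of WES1 below all wild-type arrays. AT1G25230, DFR and SPP (the stromal peptidase that trims imported plastid proteins) also spread by only 0.03 in 35S:PCO1, each inside the wild-type range. Wide wild-type spread was therefore found with as little as 0.01 and as much as 1.17 in 35S:PCO1.

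**Figure D3:**
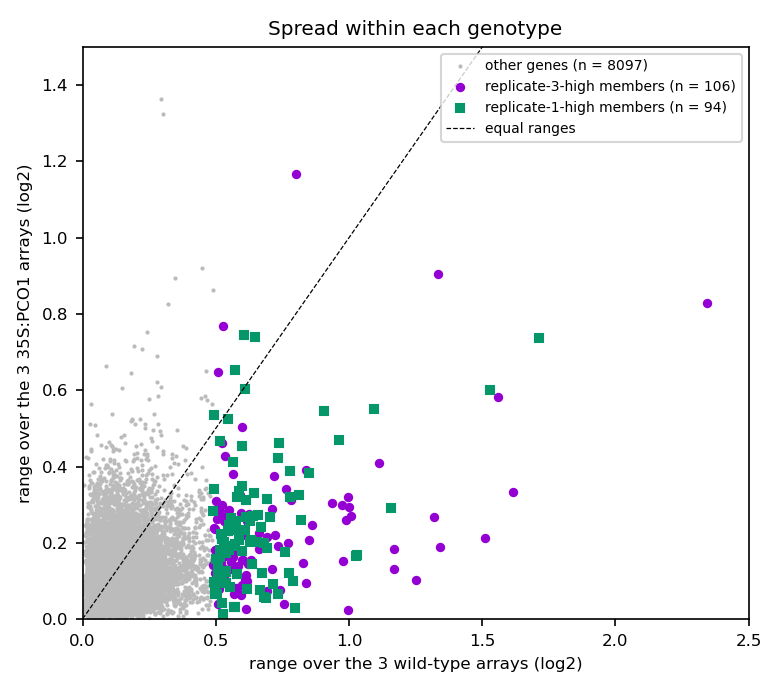
Range over the 3 35S:PCO1 arrays (log2, vertical axis) against the range over the 3 wild-type arrays (log2, horizontal axis), 1 point per gene, with grey points for the other 8097 genes, purple circles for the 106 replicate-3-high genes and green squares for the 94 replicate-1-high genes. Points below the dashed line were narrower in 35S:PCO1, which holds for 193 of the 200 genes, and AT1G62510 (1.17 in 35S:PCO1, 0.80 in wild type) lies highest of the 200.

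RefSeq gives a symbol beyond the locus to 56 of the 200 genes (28%), against 1120 of all 8297 (13.5%), so 5% of genes with a symbol and 2.01% of the others were among the 200. Roles are given here only for genes with a symbol, as background. The other 144 genes are described by their values, apart from a RefSeq synonym of AT1G22490 and places on textbook lists. Families were found by words in RefSeq symbols and synonyms or by textbook lists of loci. Any shares are to be read beside the 5%, or beside the 2.01% for genes named by locus alone, as the core hypoxia genes below are.

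Cell wall genes were the most numerous nuclear family found by word, with 8 of 45 genes among the 200. Of the 45, limma called 4 lower and 1 higher in 35S:PCO1, while of all 8297 genes 0.651% were called lower and 0.253% higher, and 2 of the 4 are among the 200 (described below). The median difference over the 45 was -0.02. Of these 8, 7 were replicate-3-high. They averaged -0.20, -0.23 and -0.28 in 35S:PCO1 and -0.01, 0.25 and 0.47 in wild type after centring, with the 35S:PCO1 averages carried by GH9B13 and TBL36 (differences of -1.63 and -1.12). In the other 6 the 35S:PCO1 mean lay inside the wild-type range. EXLA1, an expansin-like gene, had 6.81, 6.60 and 6.87 in 35S:PCO1 and 6.26, 7.03 and 7.58 in wild type. EXLB1, from another branch of the expansin superfamily, had 7.16, 6.95 and 7.16 in 35S:PCO1 and 6.98, 7.41 and 7.83 in wild type. In neither did the groups separate. The family's one replicate-1-high gene was TBL26, of the TRICHOME BIREFRINGENCE-LIKE proteins that are linked to acetylation of wall polysaccharides, with 8.85, 8.74 and 8.55 in 35S:PCO1 and 9.51, 9.06 and 8.35 in wild type. Its relative TBL36 went the other way, with 5.83, 5.84 and 5.87 in 35S:PCO1 and 6.60, 6.93 and 7.35 in wild type, and its groups did not overlap. The other cell wall genes among the 200 were EXLA2, XTH33 and EXGT-A3, a further expansin-like gene and 2 xyloglucan endotransglucosylases, with differences of -0.15, -0.21 and 0.08 (35S:PCO1 minus wild type).

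Of the 22 genes that the defence words found, 3 were among the 200 (13.6%), all jacalin-type lectins and all replicate-1-high. Also replicate-1-high were PYK10 and NAI2, 2 ER body genes picked from the 200 by background knowledge. ER body genes outside the 200 were not counted. The jacalin-type lectins JAL34, JAL23 and JAL22 averaged 0.03, -0.01 and 0.01 in 35S:PCO1 and 0.39, 0.04 and -0.47 in wild type after centring. JAL34 had 7.64, 7.81 and 7.74 in 35S:PCO1 and 8.14, 7.80 and 7.11 in wild type, so its 35S:PCO1 arrays lay around wild-type replicate 2. Both ER body genes had lower means in 35S:PCO1. PYK10, the main ER body beta-glucosidase and best known from roots, had 7.55, 7.74 and 7.60 in 35S:PCO1 and 8.38, 8.19 and 7.68 in wild type. NAI2, which the formation of ER bodies needs, had 5.83, 6.30 and 5.87 in 35S:PCO1 and 6.99, 6.44 and 6.02 in wild type. Their 35S:PCO1 means, unlike those of the lectins, lay below the lowest wild-type array, yet limma called neither (differences of -0.45 and -0.48, adjusted p = 0.233 and 0.369). The second root marker measured, EXPA7, an expansin of root hairs, had 6.27, 6.13 and 6.08 in 35S:PCO1 and 6.01, 5.89 and 5.99 in wild type. It did not share the wild-type spread of PYK10.

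DFR, the reductase that leads to anthocyanins, had 6.57, 6.54 and 6.56 in 35S:PCO1 and 6.76, 6.27 and 5.96 in wild type. UF3GT, which adds a sugar to anthocyanins, had 7.24, 7.03 and 7.15 in 35S:PCO1 and 7.12, 7.09 and 6.54 in wild type. Both were near or above wild-type replicate 2 in 35S:PCO1. Their textbook list of flavonoid and anthocyanin loci had 4 measured genes. AT5MAT and AT4G14090, also on it, had wild-type ranges of 0.46 and 0.29 and were not among the 200. The neighbouring cytochrome P450 genes CYP71B23 and CYP71B24 and the glycosyltransferase UGT87A2 followed the order of DFR, with differences of 0.23, 0.12 and 0.10, while the glutathione transferase GSTF4 was replicate-3-high, with a difference of -0.20. By word, 2 of 13 cytochrome P450 genes, 2 of 23 UDP-glycosyltransferases (8.7%) and 1 of 19 glutathione and thiol redox genes (5.26%) were among the 200. COR15A and COR15B, plastid proteins that protect membranes in the cold, stood among the most intense of the 200. COR15A had 11.92, 11.96 and 11.98 in 35S:PCO1 and 12.09, 11.87 and 11.41 in wild type, and COR15B had 11.50, 11.82 and 11.67 in 35S:PCO1 and 11.80, 11.58 and 11.22 in wild type. The textbook list of cold and abscisic acid loci had 4 measured genes, and its other 2, COR47 and LTI30, had wild-type ranges of 0.13 and 0.10.

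The plastid genome gave 15 of the 200 genes, which is 7.5% of them, while its 68 genes make up 0.82% of all 8297. All 15 were replicate-1-high and lowest in wild-type replicate 3. They averaged -0.04, -0.08 and 0.05 in 35S:PCO1 and 0.27, 0.10 and -0.31 in wild type after centring, so the 35S:PCO1 arrays lay between wild-type replicates 2 and 3. The widest, psaC, which encodes an iron-sulfur subunit of photosystem I, had 6.01, 5.94 and 6.11 in 35S:PCO1 and 6.65, 6.22 and 5.62 in wild type. Of the other 14, 5 encode NDH or photosystem II subunits (ndhD, ndhE, ndhF, ndhG and psbZ), 7 encode ribosomal proteins (rps3, rps14, rps16, rps18, rpl14, rpl16 and rpl22), and rpoC1 and matK encode an RNA polymerase subunit and a splicing factor. Among all 68 plastid genes, wild-type replicate 1 exceeded replicate 3 in 63 (92.6%), against 43.9% of all genes. Their median difference was -0.11, limma called none, and 20 of the 68 (29.4%) had an unadjusted p under 0.05, against 15.2% of all 8297 genes.

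Some nuclear genes for plastid proteins had the order of wild-type arrays that most plastid genes had, an order found in 44.5% of all the genes described here. CAF1 (a splicing factor for plastid introns), SPP and Cpn60beta2 (a plastid chaperonin subunit) averaged -0.12, 0.16 and 0.04 in 35S:PCO1 and 0.23, 0.07 and -0.37 in wild type after centring. These 3 genes were picked out after their values were seen. Nuclear genes for plastid proteins with other orders were not counted, so a link to the plastid genome was not tested. In all 3 the 35S:PCO1 mean lay inside the wild-type range.

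**Figure D4:**
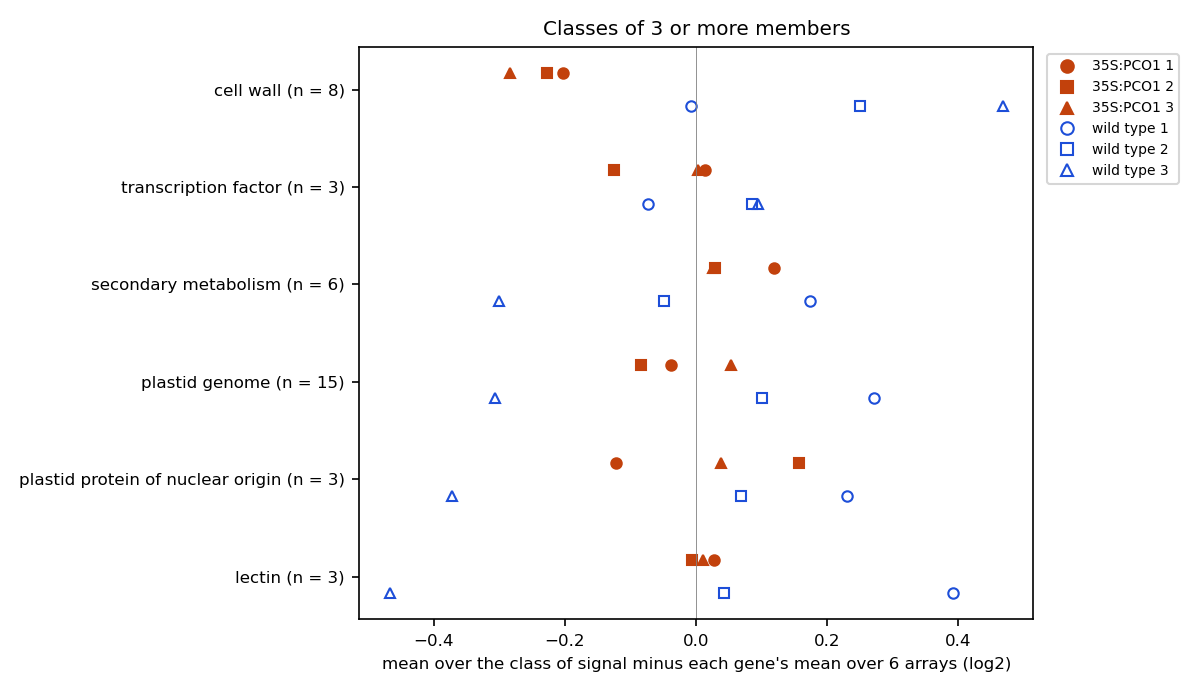
Mean over the genes of a family of the signal minus each gene's mean over the 6 arrays (log2, horizontal axis), for families of 3 or more of the 200 genes, with filled orange marks for the 35S:PCO1 arrays and open blue marks for the wild-type arrays. Cell wall genes had wild-type replicate 3 highest (0.47) and all 35S:PCO1 arrays at -0.20 or below, while lectins had wild-type replicate 1 highest (0.39) and the 35S:PCO1 arrays near 0. Nuclear families were assigned from background knowledge, and the plastid proteins of nuclear origin were picked out after their values were seen. The transcription factors shown are SNZ, BZIP61 and SHI.

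Of 26 transcription factor genes found by word, 2 were among the 200 (7.69%), BZIP61 and AT1G22490, both replicate-3-high. RefSeq lists AT1G22490 as a bHLH factor among its synonyms. The words missed SNZ and SHI, transcription factors by background knowledge that were also among the 200. The share is therefore not that of all transcription factors. SNZ was replicate-1-high and SHI replicate-3-high. AT1G22490 had 5.40, 5.56 and 5.41 in 35S:PCO1 and 5.78, 5.89 and 6.31 in wild type, and its groups did not overlap (difference -0.54, limma adjusted p = 0.0903). AKINBETA1, a subunit of the SnRK1 kinase that senses low energy, had 8.30, 7.99 and 8.12 in 35S:PCO1 and 7.88, 8.14 and 8.38 in wild type. BZIP61, a basic leucine zipper factor, had 7.54, 7.36 and 7.53 in 35S:PCO1 and 7.10, 7.51 and 7.76 in wild type. AKINBETA1 and BZIP61 spread around a mean that was nearly the same in the 2 genotypes, with differences of 0.00 and 0.02. GTR2, a glucosinolate transporter, had 7.96, 7.90 and 7.80 in 35S:PCO1 and 8.13, 8.38 and 8.64 in wild type, and its groups did not overlap (adjusted p = 0.0946 in limma). MT1C, a metallothionein, had 8.27, 8.34 and 8.37 in 35S:PCO1 and 8.35, 8.80 and 8.87 in wild type. TUB1, a beta-tubulin, had 7.47, 7.63 and 7.37 in 35S:PCO1 and 7.28, 7.69 and 7.83 in wild type, with its 35S:PCO1 values inside the wild-type range.

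Of the textbook lists of loci, that of the core hypoxia response had 14 genes with a probe set of their own. Only 5 of them met the signal minimum of 5. Of these 5, AT4G10270 was among the 200 and was the 1 that limma called (lower). It had 5.01, 4.95 and 4.64 in 35S:PCO1 and 5.46, 5.93 and 6.18 in wild type, and its groups did not overlap. Its 35S:PCO1 mean lay under the signal minimum, so it entered the 8297 genes through wild type. AT3G03270 (wild-type range 0.45), AT4G17260 (0.16), AT5G44730 (0.11) and AT1G05575 (0.05) were not among the 200. Neither were the 3 genes of rapid responses to touch and wounding that met the minimum (of 5 with a probe set of their own). The same holds for the 2 measured genes of leaf photosynthesis and the 2 of senescence. No flower or seed marker was named on a probe set of its own here, so these organs were not checked.

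Where the 35S:PCO1 arrays lay was not the same on both sides of the wild-type range. In 32 of the 200 genes all 35S:PCO1 arrays lay below all wild-type arrays (16%), against 10.3% of all genes, and in 4 they lay above (2%), against 9.97% of all genes. Together that is 36 genes (18%), against 20.2% of all genes, so a lack of overlap was not more frequent among the 200. All 32 genes below were replicate-3-high, and all 4 genes above were replicate-1-high. These 4 were AT2G33850, AT5G33370, ndhG and ndhF, of which the last 3 were singled out after their values were seen. A group of 2 arrays overlaps less often for any gene, above all where the array left out had set the range, so the next counts are given beside those of all genes. Without wild-type replicate 1, 73 of the 200 lay below (36.5%) and 29 above (14.5%), against 18.5% and 16.5% of all genes. Without wild-type replicate 3, 63 lay below (31.5%) and 12 above (6%), against 15% and 17.7% of all genes. Without 35S:PCO1 replicate 1, 36 lay below (18%) and 7 above (3.5%), against 14.3% and 14.9% of all genes. Without 35S:PCO1 replicate 2, 41 lay below (20.5%) and 18 above (9%), against 17.8% and 16.8% of all genes. Without wild-type replicate 2, 32 lay below (16%) and 5 above (2.5%), against 13.6% and 12.9% of all genes. Without 35S:PCO1 replicate 3, 35 lay below (17.5%) and 4 above (2%), against 13.1% and 12.9% of all genes. Of the 32 genes below, 5 had a 35S:PCO1 mean under the signal minimum of 5 and met it through wild type, and 27 had both means at or above it. Over the 200 genes, 8 had only the 35S:PCO1 mean under 5, and 1 had only the wild-type mean under 5.

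The 35S:PCO1 mean lay inside the wild-type range in 136 of the 200 genes (68%), below it in 50 (25%) and above it in 14 (7%). Over all genes these shares were 52.2%, 23.7% and 24.1%. A wider wild-type range leaves more room inside it, so the first share follows in part from the choice of genes. Of the 50 below, 44 were replicate-3-high, and of the 14 above, 13 were replicate-1-high. The wild-type array nearest to the 35S:PCO1 mean was replicate 1 in 65, replicate 2 in 35 and replicate 3 in 6 of the replicate-3-high genes. In the replicate-1-high genes it was replicate 1 in 23, replicate 2 in 54 and replicate 3 in 17. Replicate 3 was thus nearest in 5.66% of the replicate-3-high and 18.1% of the replicate-1-high genes, against 28.1% of all genes, but in 7 of the 15 plastid genes (46.7%) and 38 of all 68 (55.9%).

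The median difference, 35S:PCO1 minus wild type, was -0.09 over the 200 genes, -0.22 in the replicate-3-high set and 0.06 in the replicate-1-high set, against 0.00 over all 8297 genes. Limma, with Benjamini-Hochberg adjustment over 22746 probe sets and a threshold of 0.05, called 11 of the 200 genes lower in 35S:PCO1 (5.5%) and 1 higher (0.5%). Of all probe sets 0.840% were called, 0.633% lower and 0.207% higher, and of the 8297 genes 0.651% were called lower and 0.253% higher. The wild-type spread that chose these genes enters their error, with a median SE of the difference of 0.137, against 0.0647 over all genes, so the counts are a description. An unadjusted p under 0.05 was found in 57 of the 200 (28.5%), against 1261 of all 8297 genes (15.2%).

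**Figure D5:**
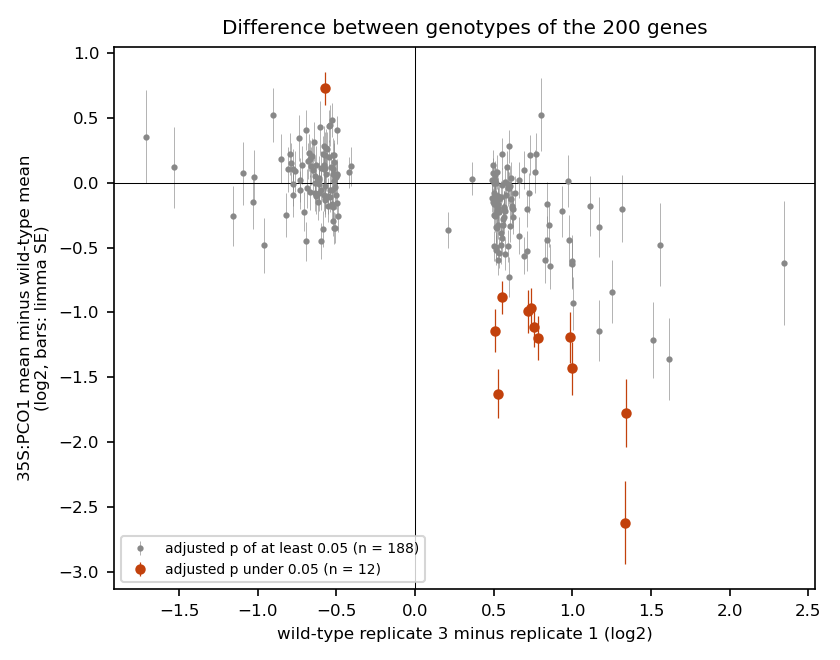
Difference between genotypes (35S:PCO1 mean minus wild-type mean, log2, vertical axis, bars of 1 limma SE) against wild-type replicate 3 minus wild-type replicate 1 (log2, horizontal axis) for the 200 genes, with the 12 called genes in orange. The 11 genes called lower all lie on the right, where wild-type replicate 3 was the higher array, and the 1 gene called higher lies on the left.

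The largest difference was that of AT1G62500, whose values are given above. It was 6.15-fold lower in 35S:PCO1 (-2.62 on the log2 scale, SE 0.32, limma adjusted p = 0.0131), and even its highest 35S:PCO1 array lay below its lowest wild-type array. AT3G21770 had 5.72, 5.83 and 5.64 in 35S:PCO1 and 6.81, 7.56 and 8.15 in wild type, a difference of -1.78 (SE 0.26, adjusted p = 0.0230). GH9B13 fell by 1.63 in 35S:PCO1 (SE 0.19, adjusted p = 0.0116) and TBL36 by 1.12 (SE 0.15, adjusted p = 0.0170). These were the cell wall genes with a symbol among the called ones.

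AT2G19970 had 4.89, 4.97 and 4.65 in 35S:PCO1 and 5.78, 6.25 and 6.78 in wild type. It and AT4G10270 met the signal minimum of 5 through wild type, and without them 9 genes were called lower. AT3G18280 had 7.30, 7.49 and 7.18 in 35S:PCO1 and 8.09, 8.61 and 8.87 in wild type. AT3G45160 had 7.60, 7.83 and 7.57 in 35S:PCO1 and 8.35, 8.89 and 9.34 in wild type. In these 3 genes, as in AT2G28790, AT4G10270, AT1G05710 and AT2G31390, all 35S:PCO1 arrays lay below all wild-type arrays, and wild-type replicate 1 was the nearest. AT2G28790 had 7.94, 8.41 and 7.76 in 35S:PCO1 and 8.93, 9.17 and 9.44 in wild type. The differences of these 7 genes ran from -0.88 to -1.43, with adjusted p from 0.0211 to 0.0346, and AT1G05710 and AT2G31390 were singled out after their values were seen.

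The gene called higher was AT2G33850, with 9.21, 8.98 and 9.22 in 35S:PCO1 and 8.68, 8.42 and 8.11 in wild type. Its difference was 0.73 (SE 0.13, adjusted p = 0.0406). It lay above all wild-type arrays although wild-type replicate 1 was the high one.

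With 1 array left out, limma called 50 of the 200 without wild-type replicate 1, 17 without wild-type replicate 3 (16 lower, 1 higher) and 5 without 35S:PCO1 replicate 2. Of all 22746 probe sets it called 489, 149 and 105 in these settings, against 191 with all arrays. It called none of the 200 without wild-type replicate 2, 35S:PCO1 replicate 1 or 35S:PCO1 replicate 3. In each of those settings it called 5 of all 22746 probe sets. For the 10 called genes that the naming rule takes, the call held without wild-type replicate 1 or 3. Where calls were lost the sizes moved little: AT1G62500 differed by -2.59 without wild-type replicate 2 and by -2.48 and -2.47 without 35S:PCO1 replicates 1 and 3, and TBL36 by -1.13, -1.11 and -1.13. With weights estimated per array it called 58, 48 lower and 10 higher. Wild-type replicate 2 then had a weight of 4.55 and the other arrays weights of 0.434 to 1.42. With a trended robust prior it called 7 of the 200, while its count over all probe sets rose from 191 to 244. The ordinary t statistic of the same model called none. For the same 10 genes, no setting tried turned the sign of the difference.

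Some of the 200 genes were neighbours on a chromosome. Among the 185 nuclear genes, 6 pairs lay within 3 protein-coding genes of each other, and both genes of each pair were in the same set. The replicate-3-high pairs were AT1G62480 with AT1G62500 and AT1G62500 with AT1G62510. The replicate-1-high pairs were JAL22 with JAL23, COR15B with COR15A, CYP71B23 with CYP71B24, and AT5G52750 with AT5G52760. By symbol JAL22 with JAL23, COR15A with COR15B and CYP71B23 with CYP71B24 are members of one family, and similar sequences can share signal on an array. None of the 200 genes was measured by a probe set whose suffix marks shared or cross-hybridising probes.

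Of 6771 probe sets that met the signal minimum but have no gene or several genes in the annotation, 248 had a wild-type range at least as wide as the last gene taken, and wild-type replicate 2 lay in the middle in 246 of them. These were picked by the same limit on the same 3 wild-type arrays, so their order is a description and no independent support. Of 5128 single-gene probe sets below the signal minimum, 27 were as wide.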

How the data were processed

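The values deposited by the authors are log2 signals of 22810 probe sets on 6 arrays, computed with RMA per the submitters' processing notes, which name no version. RMA equalises the distributions of the arrays and gives no detection call. The values were used as deposited. Of 22746 probe sets left without 64 controls, the platform annotation pairs 13513 with 1 gene, 503 with several and 8730 with none. Symbols were updated through NCBI RefSeq (TAIR10.1), which lacks 2 of the 200 genes; neighbours come from the same table. The genes and families were chosen with earlier results of these data known, and some alternatives after seeing the data.

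The test was limma 3.58.1 (eBayes after lmFit) in R 4.3.3, two-sided, with no covariate, on all arrays. Their number limits the precision, and an exact permutation test of 3 against 3 cannot give a p below 0.1. The procedure was tested on simulated data. Tables were made with Python 3.11.15, pandas 2.3.3 and numpy 2.4.6, figures with matplotlib 3.10.9.

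The text names the 20 widest genes, called genes (up to 8 per direction by size), up to 3 genes per family list, the 5 widest and 5 narrowest in 35S:PCO1, the 3 on each side of the limit and the widest of each wild-type order; other plastid and cell wall genes stand as parts of their counts. The labels do not say whether replicate numbers pair the samples, and the main test did not pair them. Deviations of arrays with one number correlated at -0.06, -0.08 and -0.02, which cannot settle the question.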

Additional observations from a re-analysis of the deposited data

How the results depend on the processing

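The count of called genes among the 200 (12) was 7 with a trended robust prior, 58 with array weights and 0 with the ordinary t statistic. Over all probe sets (191) the trended robust prior gave 244, array weights 2216 and the ordinary t statistic 0. Leaving out 1 array in turn gave 0 to 50 of the 200 and 5 to 489 of all probe sets. Filters that drop the dimmest 20% or 40%, median centring and quantile normalization kept the counts within 1.5 times. With the replicate block, limma called 18 of the 200 (17 lower, 1 higher) and 228 of all probe sets; no array had its best correlation with the array of its number. The median range over the 35S:PCO1 arrays was 0.230 for the first 100 genes and 0.0941 to 0.143 with 1 35S:PCO1 array left out. Leaving out 1 array in turn was a choice added after seeing the data. It gave 32 to 73 of the 200 with all 35S:PCO1 arrays below (16% to 36.5%) and 4 to 29 with all above (2% to 14.5%). Over all genes these shares were 13.1% to 18.5% below and 12.9% to 17.7% above. A minimum mean of 4 or 6, or the SD in place of the range, kept 181, 158 and 192 of the 200 genes. Choosing without wild-type replicate 1, 2 or 3, also added later, kept 111, 196 and 82. For the 10 called genes named by rule, the call held in 63 of 79 values with no array left out and in 24 of 60 with 1 left out, with 0 reversed. With 3 arrays a group, which of them is typical of wild type cannot be told, and the causes of these shifts were not tested.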
